A study of Mus musculus with 8 samples.

Results

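The genes described here are 41 antioxidant, glutathione and NRF2 genes: the regulator Nfe2l2 (NRF2) and its repressor Keap1, superoxide dismutases, catalase, peroxiredoxins, glutathione peroxidases, the thioredoxin and glutaredoxin system, glutathione enzymes and glutathione S-transferases. They were taken by symbol from the 54091 gene rows of the table, and all 41 were found, had reads in every library and were among the 13141 genes that passed the filter on low values. Their transcripts were measured by RNA-seq in white quadriceps, in which fast glycolytic fibres predominate. The knockout group was 4 male mice aged 11 to 14 weeks that carried floxed Acot2 alleles and CKM Cre (Acot2 ko in muscle), which is Cre recombinase driven by the muscle creatine kinase promoter and active in striated muscle fibres (knockouts 5 to 8). The other group was 4 male Loxp/Loxp mice of the same ages, with no Cre in their label (floxed controls 1 to 4). All 8 mice were fasted for 14 h overnight and tissue was taken in the morning. The Acot2 enzyme releases free fatty acid from acyl-CoA inside mitochondria. A group with Cre and no floxed allele was not analysed here, so Cre and loss of Acot2 cannot be told apart. The 2 groups each hold 4 separately numbered mice, and reads on genes ranged from 28659632 in knockout 8 to 40977866 in floxed control 2.

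Reactive oxygen species arise in muscle from the mitochondrial respiratory chain and from oxidases. Superoxide dismutases turn superoxide into hydrogen peroxide, which catalase, peroxiredoxins and glutathione peroxidases then reduce to water. Peroxiredoxins are recharged by thioredoxin and thioredoxin reductase, glutathione peroxidases by glutathione and glutathione reductase, and both reductases draw on NADPH. KEAP1 holds NRF2 for breakdown, and when KEAP1 is oxidised NRF2 pairs with small MAF proteins at antioxidant response elements (ARE) and raises transcription of many of these enzymes.

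RefSeq promoter windows, which run from 250 bases before to 50 bases after a start site in GRCm38.p6, were held for 34 of the 41 genes. The ARE core TGACNNNGC, searched on both strands, was in a window of 8 of these 34 genes (23.5%), against 14.0% of the 27025 genes with a window. These 8 were G6pdx, Gclm, Gstm5, Nfe2l2, Prdx1, Sod1, Srxn1 and Txnrd1. The NF-E2 form, TGAGTCAGC or TGACTCAGC on either strand, was in 3 of the 34 (8.82%), against 0.929% of all genes. TGACTCAGC is also a match to the ARE core, so the Prdx1 site counts in both searches. The 34 genes had 45 windows, and all genes had 32851, so the chance of a match per gene also depends on windows per gene. By window the shares were 17.8% against 12.4% for the ARE core, and 6.67% against 0.822% for the NF-E2 form. NRF2 targets were put on the list by choice, so these shares are not a test. The windows shown are those with the NF-E2 form and that of Txnrd1, whose product with Srxn1 and Prdx1 forms a single repair chain for peroxides. Each runs 5′ to 3′ on the strand of its gene, with the match in capitals. The match lies 133 bases before the start in Prdx1 (plus strand, chr4:116685440-116685500, match on the opposite strand), 45 before in Srxn1 (plus strand, chr2:152105453-152105513), 74 before in Gstp1 (minus strand, chr19:4037952-4038012) and 92 before in Txnrd1 (plus strand, chr10:82859088-82859148, match on the opposite strand, at a start site inside the annotated gene).
Prdx1: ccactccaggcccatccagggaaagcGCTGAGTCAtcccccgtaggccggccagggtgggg
Srxn1: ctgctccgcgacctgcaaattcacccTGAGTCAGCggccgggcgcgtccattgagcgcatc
Gstp1: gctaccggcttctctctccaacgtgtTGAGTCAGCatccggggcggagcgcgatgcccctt
Txnrd1: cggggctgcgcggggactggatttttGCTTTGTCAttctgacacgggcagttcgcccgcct
A match describes these letters only, and binding was not measured. Sites outside the windows were not searched, so a gene without a match here may hold one elsewhere.

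Levels of these genes spanned a wide range in the muscle. Levels between genes are given as normalized counts per kb, which are reads divided by the library's size factor and by the length of the longest coding transcript. The cytosolic copper-zinc superoxide dismutase gene Sod1 was highest, at 5708 ± 475 in knockouts and 5923 ± 279 in floxed controls (SD, n = 4 each). The mitochondrial peroxiredoxin gene Prdx3 had 3365 ± 468 per kb in knockouts and 2785 ± 336 in floxed controls. Gpx4, which encodes the peroxidase that clears lipid hydroperoxides from membranes, averaged 2624 per kb over the 8 libraries, the cytosolic peroxiredoxin gene Prdx1 averaged 2401 and catalase (Cat) 1982. Over the libraries the range of Gpx4, 1946 to 3304, overlapped those of Prdx3, 2283 to 3840, and Prdx1, 2177 to 2569.9, so the order of these 3 is within the spread. At the low end stood the extracellular superoxide dismutase gene Sod3, at 21.5 per kb, and Nnt, at 3.83.

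**Figure D1:**
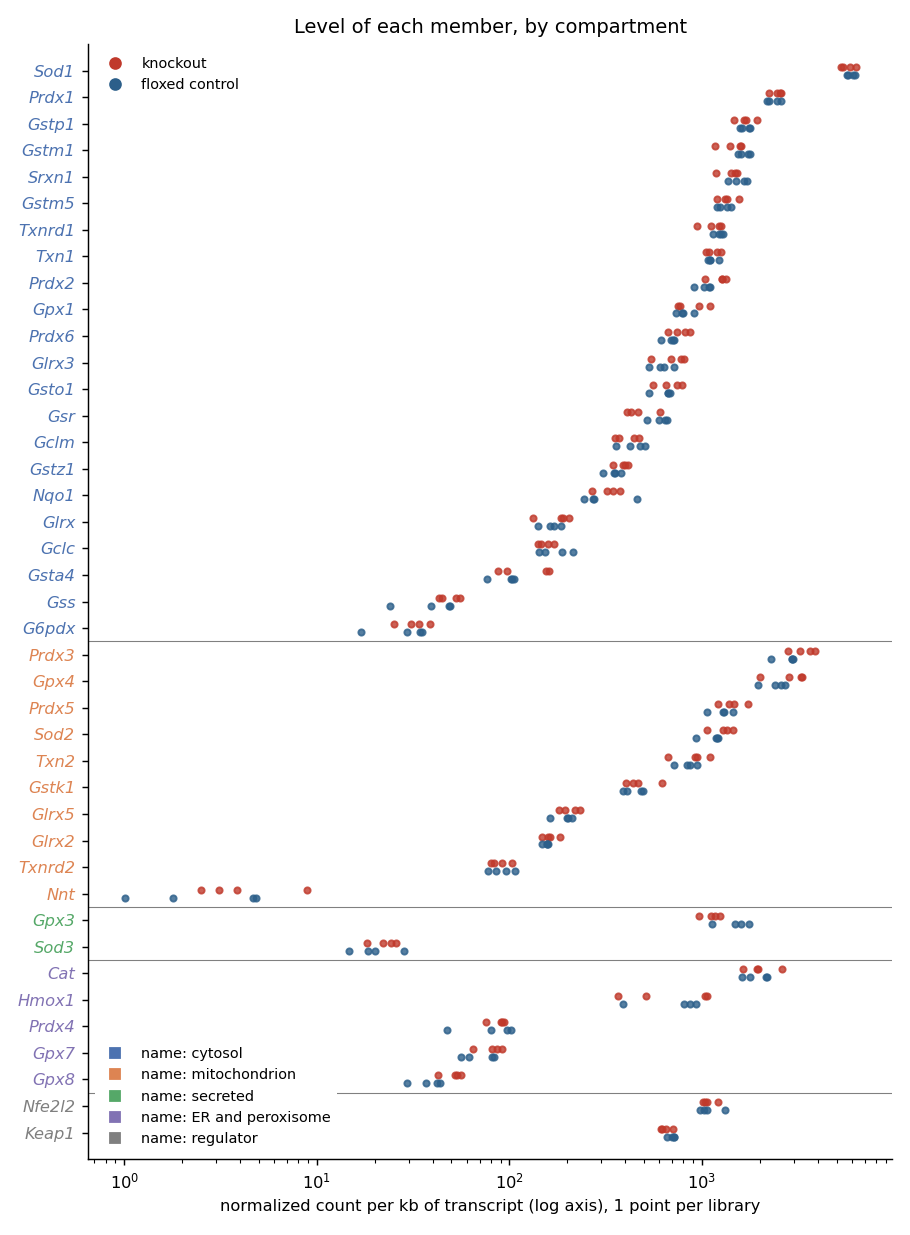
Level of each of the 41 genes in each library, as normalized counts per kb of transcript on a log axis; points are libraries (knockout above floxed control in each pair), and the colours of the names give the compartment of the protein. Sod1 lies highest and Nnt lowest, and the 2 groups overlap for every gene.

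Shares of the level per kb within families were led by Sod1, Gpx4 and Prdx3. Sod1 made up 81.4% ± 1.27 of superoxide dismutase counts per kb in knockouts and 83.7% ± 1.42 in floxed controls, with nearly all of the rest from the mitochondrial Sod2 (SD, n = 4 each). This split depends on transcript length, because the longest annotated Sod2 transcript has 5861 bases. Of the glutathione peroxidases, Gpx4 held 56.5% ± 4.67 in knockouts and 49.9% ± 4.12 in floxed controls, and the secreted Gpx3 held 22.8% ± 4.44 in knockouts and 31.0% ± 5.04 in floxed controls. Of the peroxiredoxins, Prdx3 held 36.0% ± 2.55 in knockouts and 33.9% ± 1.42 in floxed controls, and Prdx1 held 26.3% ± 1.10 in knockouts and 28.8% ± 1.68 in floxed controls. Of the glutathione S-transferases, Gstp1 held 27.4% ± 1.76 in knockouts and 27.2% ± 1.32 in floxed controls, and Gstm1 held 23.4% ± 3.51 in knockouts and 27.0% ± 1.90 in floxed controls, an order within the spread between mice.

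None of the 41 genes passed the test between knockout and floxed control muscle. Each difference is a log2 value, the knockout mean minus the floxed control mean, and its standard error (SE) is that of limma's moderated fit over all tested genes. A gene counted as changed at a Benjamini-Hochberg adjusted p under 0.05. That threshold was passed by 0 of the 41 genes, against 0 of 13141 genes (0%), also with limma voom on recovered reads. Adjusted p by limma ranged from 0.746 to 0.994 over the 41 genes. At an unadjusted p under 0.05 there were 4 of the 41 genes (9.76%), against 810 of all genes (6.16%). Of these, 2 were higher (Prdx2 and Prdx3) and 2 lower (Gpx3 and Gsr) in knockouts, where 2.47% of all genes were higher and 3.7% lower at that threshold. The 2 groups overlapped for all 41 genes, whereas they did not overlap for 362 of all tested genes (2.75%). Acot2 itself, the targeted gene, stood at 19.4% of the floxed control mean, with a difference of -2.30 (SE 0.287) and a limma adjusted p of 0.0870. In such bulk tissue, fewer cells of a type and less RNA per cell cannot be told apart.

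**Figure D2:**
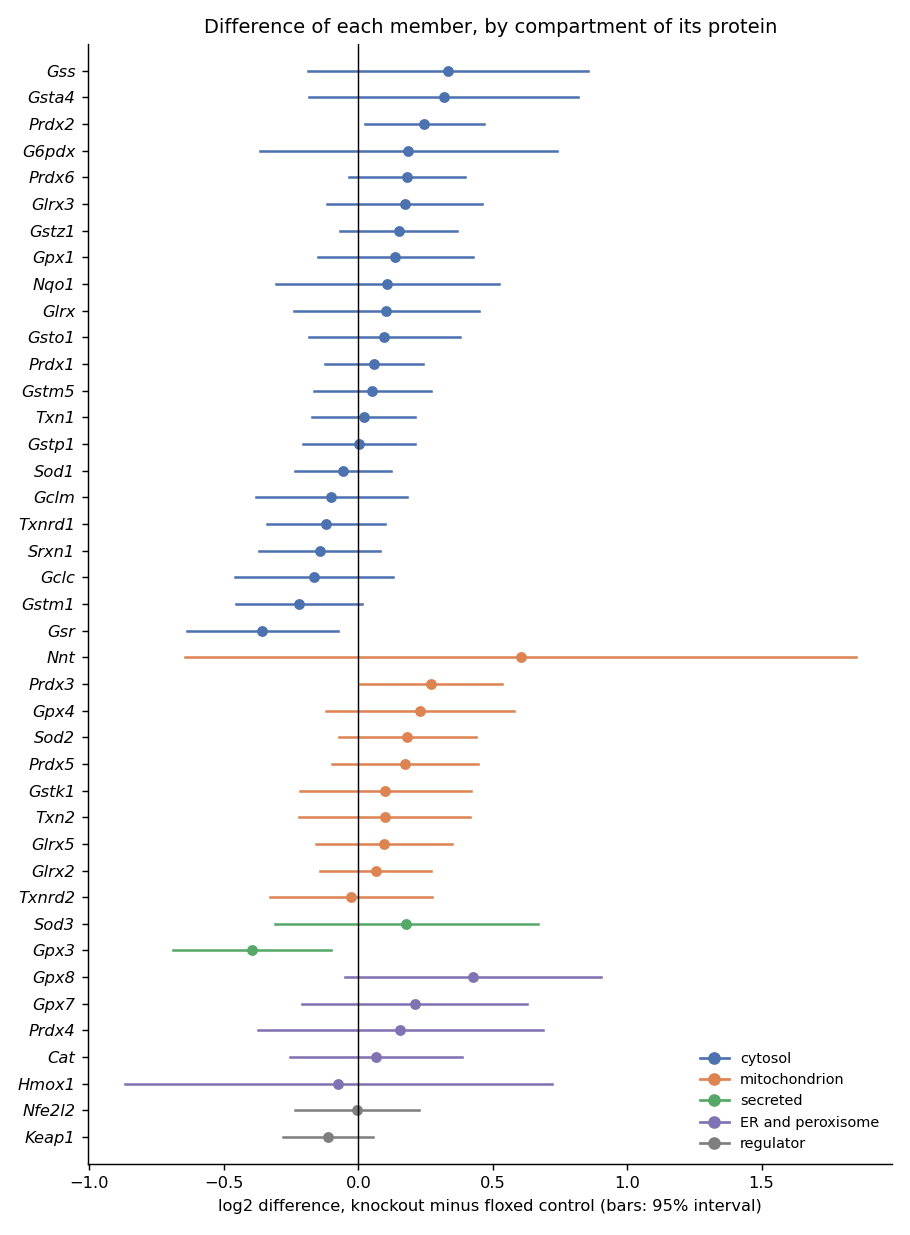
Log2 difference of each gene, knockout minus floxed control, with its 95% interval from limma, grouped by the compartment of the protein. Intervals of Gpx3 and Gsr lie below 0 and those of Prdx2 and Prdx3 above 0 before any adjustment; after adjustment over all genes 0 of the 41 passed.

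Transcript levels of the regulators NRF2 and KEAP1 overlapped between the groups, and neither gene passed the test. Nfe2l2 had 2555, 2502, 2633 and 3005 normalized counts in knockouts 5 to 8, against 2404, 3243, 2530.4 and 2610.2 in floxed controls 1 to 4. All 4 knockouts lay inside the range of the floxed controls, and the difference was -0.01 (SE 0.105, 95% interval -0.24 to 0.22), a sign that turned to 0.04 when every library was scaled to the same total. Keap1 had 2353, 2205, 2249 and 2556 normalized counts in knockouts, against 2524, 2599.5, 2387 and 2593 in floxed controls. Of the knockouts, 3 lay below every floxed control, with a difference of -0.11 (SE 0.0759, 95% interval -0.28 to 0.06). NRF2 is controlled largely through its protein, so its transcript level does not show its activity.

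Of 6 textbook NRF2 targets (Nqo1, Hmox1, Gclc, Gclm, Srxn1 and Txnrd1), 5 had a lower and 1 a higher mean in knockouts, with a median difference of -0.11 beside 0.0031 over all tested genes, and 0 passed the test. The split of 5 and 1 was also found when libraries were scaled to the same total or by TMM, but it was 4 and 2 without knockout 6, knockout 7, floxed control 2 or floxed control 3. Leaving out knockout 6 gave a median of -0.03, and leaving out knockout 5 or floxed control 1 gave -0.18. Srxn1, the sulfiredoxin that repairs over-oxidised peroxiredoxins, had 4274, 3341, 4187 and 3996 normalized counts in knockouts, against 3813, 4230.3, 4616 and 4783 in floxed controls (difference -0.14, SE 0.102). Txnrd1, the cytosolic thioredoxin reductase, had 4451, 3389.8, 4036 and 4553 in knockouts, against 4140.4, 4673, 4438 and 4524 in floxed controls (-0.12, SE 0.0994). In both genes knockout 6 was the lowest of the 8 libraries. Gclc and Gclm encode the catalytic and modifier subunits of glutamate-cysteine ligase, the rate-limiting enzyme of glutathione synthesis. Gclc had 543, 501, 580.0 and 480.5 normalized counts in knockouts, against 486, 527, 733 and 638 in floxed controls (-0.16, SE 0.134). Gclm had 2642, 1963, 2083 and 2479 in knockouts, against 2826, 1999, 2356 and 2655 in floxed controls (-0.10, SE 0.128). The groups of both genes overlapped widely.

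Nqo1 and Hmox1 varied mostly between mice of a group. Nqo1, a quinone reductase often used as a readout of NRF2, had 416, 500.0, 534 and 583 normalized counts in knockouts, against 419, 711, 427 and 377 in floxed controls (difference 0.11, SE 0.188). Floxed control 2 was the highest of all, and without it the difference was 0.31. Hmox1, the inducible haem oxygenase, had 1619.8, 574, 803 and 1657 normalized counts in knockouts, against 611, 1357, 1456 and 1262 in floxed controls. Each group held both high and low mice, and the SD of log2 values over the 8 libraries was 0.63, the second largest among the 41 genes. The Hmox1 difference of -0.08 (SE 0.361) had a 95% interval from -0.87 to 0.72, and it ran from -0.36 to 0.22 as single libraries were left out.

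The 3 superoxide dismutases, which work in different compartments, gave differences of both signs. Sod1, of the cytosol, had 3359, 3775, 3469 and 4031 normalized counts in knockouts, against 3984, 3624, 3914 and 3666 in floxed controls (difference -0.06, SE 0.0811). Its 95% interval, -0.23 to 0.12, was among the narrowest of the 41 genes. Sod2, the manganese enzyme of the mitochondrial matrix, had 6252, 7528, 7892 and 8459.9 in knockouts, against 6998, 6935, 7133 and 5484 in floxed controls (0.18, SE 0.115, 95% interval -0.07 to 0.44). Knockouts 6, 7 and 8 lay above every floxed control, while knockout 5 and floxed control 4 were the lowest libraries. Sod3, the secreted enzyme that binds to extracellular matrix, had 82.9, 90.4, 96.8 and 67.8 in knockouts, against 54.7, 106, 68.8 and 74.7 in floxed controls (0.18, SE 0.222). All 4 knockouts lay within the floxed control range.

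Among 12 peroxide-removing enzymes, 11 had a higher mean in knockouts, with a median difference of 0.18, and Gpx3 was the 1 with a lower mean. Gpx3 encodes the secreted glutathione peroxidase of plasma and extracellular fluid (chromosome 11, 54902453 to 54910377, plus strand, GRCm38). It had 1871, 1764, 1974 and 1541 normalized counts in knockouts, against 2800.1, 2532, 1796 and 2359 in floxed controls. Knockouts 6 and 8 lay below every floxed control, and the groups overlapped through floxed control 3. The knockout mean was 75.4% of the floxed control mean, with a difference of -0.40 (SE 0.133, 95% interval -0.69 to -0.10). This was the smallest unadjusted p of the 41 genes, 0.0128, with a limma adjusted p of 0.746. Leaving out each library in turn gave differences from -0.52 to -0.31 and unadjusted p up to 0.0437. Floxed control 3 and knockout 8, each the lowest of its group, are mice 3250 and 3251, while the others are numbered 3204 to 3210. With this number range added to the limma fit, the Gpx3 difference was -0.40 (SE 0.0897, unadjusted p 0.00137, limma adjusted p 0.790). The sources used here do not say what the number range stands for, and its part was not tested.

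The 6 peroxiredoxins all had higher means in knockouts, also under both rescalings, with differences from 0.06 to 0.27, and 0 of them passed the test. Without floxed control 2 the difference of Prdx4 turned to -0.08. Prdx3, the peroxiredoxin of the mitochondrial matrix (chromosome 19, 60864051 to 60874556, minus strand), had 4113, 5358, 4746 and 5676 normalized counts in knockouts, against 4391, 4356, 4347 and 3374 in floxed controls. Knockouts 6, 7 and 8 lay above every floxed control. The difference was 0.27 (SE 0.121, 95% interval 0.0047 to 0.54), with a limma adjusted p of 0.746, an unadjusted p of 0.0467 and values up to 0.150 as single libraries were left out. Prdx2, an abundant cytosolic peroxiredoxin (chromosome 8, 84969587 to 84974834, plus strand), had 1670.2, 2039, 2135 and 2043 in knockouts, against 1652, 1775, 1755 and 1459 in floxed controls. Again 3 knockouts lay above every floxed control, and the difference was 0.25 (SE 0.0999, unadjusted p 0.0317, up to 0.102 as single libraries were left out; limma adjusted p 0.746). Prdx2 overlaps Junb and Rnaseh2a on the opposite strand, and the sources used here do not state how strand was treated in counting.

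**Figure D3:**
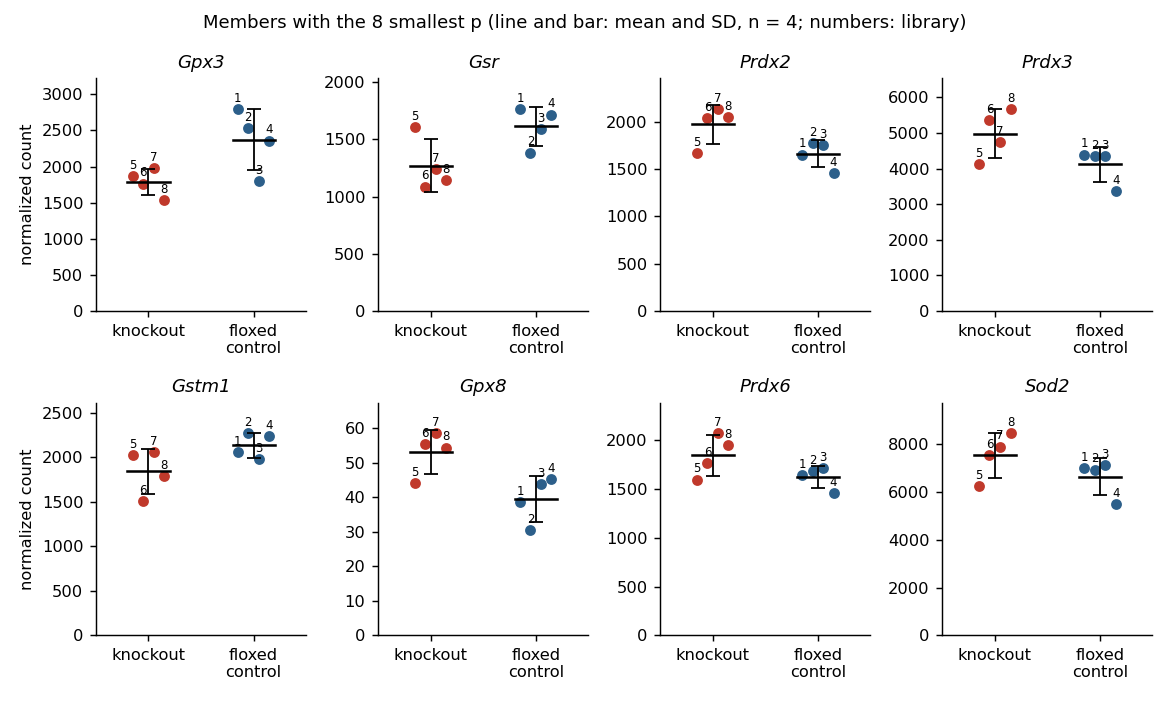
Normalized counts per library of the 8 genes with the smallest p, with mean and SD of 4 mice per group and library numbers at the points. In Prdx2, Prdx3, Prdx6 and Sod2, knockout 5 lies among the floxed controls and floxed control 4 is the lowest of its group; in Gpx3, floxed control 3 lies among the knockouts.

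The other peroxiredoxins had smaller differences or wider spreads. Prdx6, which also reduces phospholipid peroxides with glutathione, had 1598, 1765, 2075 and 1956 normalized counts in knockouts, against 1644, 1685, 1713 and 1458 in floxed controls (difference 0.18, SE 0.0979). Prdx5, found in mitochondria, peroxisomes and cytosol, had 1518 to 2178 in knockouts and 1346 to 1821 in floxed controls (0.17, SE 0.123). Prdx1, the most abundant cytosolic one, had 5126, 5646, 5796 and 5895 in knockouts, against 5888, 5114, 5609 and 4994 in floxed controls, a difference of 0.06 (SE 0.0829). Prdx4, of the endoplasmic reticulum, had 74.8 to 93.1 in knockouts and 47.0 to 101 in floxed controls (0.16, SE 0.24). For Prdx1 and Prdx4 the range of one group lay largely inside that of the other.

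The remaining glutathione peroxidases and catalase also had higher means in knockouts, and 0 passed the test. Gpx4 had 1998, 3287, 3239 and 2807 normalized counts in knockouts, against 2389.7, 2686, 2546 and 1937 in floxed controls (difference 0.23, SE 0.159). Knockouts 6, 7 and 8 lay above every floxed control, and knockout 5 and floxed control 4 were close to each other at the low end. Its transcripts encode cytosolic, nuclear and mitochondrial forms, which gene counts do not separate. Gpx1, the classical cytosolic enzyme, had 804, 1185, 820.2 and 1036 in knockouts, against 847, 857, 969 and 787 in floxed controls (0.14, SE 0.131). Gpx8, a peroxidase of the endoplasmic reticulum membrane, had only 44.2, 55.6, 58.7 and 54.5 in knockouts, against 38.6, 30.5, 43.8 and 45.3 in floxed controls (0.43, SE 0.216, limma adjusted p 0.746). Of its knockouts, 3 lay above every floxed control. Gpx7, of the endoplasmic reticulum lumen, had 82.9, 111, 104 and 119 in knockouts, against 71.8, 104, 79.2 and 107 in floxed controls (0.21, SE 0.19). Cat, the peroxisomal catalase, had 5061, 4249, 6824 and 5118 in knockouts, against 4647, 5695, 5610.2 and 4227 in floxed controls. Knockout 7 alone lay above the floxed control range, and the Cat difference of 0.06 (SE 0.145) turned to -0.06 without knockout 7 and to -0.02 without floxed control 4.

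In the thioredoxin and glutaredoxin system, 6 of 9 genes had a higher mean in knockouts, with a median difference of 0.07, and 0 passed the test. The 4 glutaredoxins (Glrx, Glrx2, Glrx3 and Glrx5), which reduce mixed disulfides with glutathione or serve iron-sulfur cluster assembly, had differences from 0.07 to 0.17. Glrx3 had the largest of these, with 1876 to 2765 normalized counts in knockouts and 1820.1 to 2453 in floxed controls (0.17, SE 0.131). Thioredoxin 1 (Txn1), of the cytosol, differed by 0.02 (SE 0.0872, 95% interval -0.17 to 0.21), one of the tightest estimates among the 41 genes. The mitochondrial pair gave 0.10 (SE 0.144) for thioredoxin 2 (Txn2) and -0.03 (SE 0.136) for its reductase Txnrd2. Txnrd2 had 229.9 to 297 normalized counts in knockouts, within the 222 to 308 of floxed controls. As single libraries were left out the sign turned for Txn1 (down to -0.02), Txn2 (-0.0058 without knockout 7) and Txnrd2 (up to 0.05).

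Glutathione synthesis, recycling and NADPH genes gave differences of both signs, 3 higher and 3 lower, with a median of 0.04. Gsr encodes glutathione reductase, which returns oxidised glutathione to its reduced form (chromosome 8, 33652523 to 33698163, plus strand). It had 1609, 1088, 1237 and 1147 normalized counts in knockouts, against 1768, 1385, 1591 and 1716 in floxed controls. Knockouts 6, 7 and 8 lay below every floxed control and knockout 5 lay among them. The knockout mean was 78.7% of the floxed control mean, with a difference of -0.36 (SE 0.128, 95% interval -0.64 to -0.07). The unadjusted p was 0.0178, up to 0.0533 as single libraries were left out, and the limma adjusted p was 0.746. Gss, glutathione synthetase, had 87.4, 109, 84.7 and 104 in knockouts, against 96.5, 94.9, 46.9 and 76.4 in floxed controls (0.33, SE 0.236). The low floxed control 3 carried much of that difference, which was 0.11 without it. G6pdx, the first enzyme of the pentose phosphate pathway, had 66.6 to 102 in knockouts and 45.0 to 92.8 in floxed controls (0.19, SE 0.25). Without floxed control 1, the lowest of the 8 libraries, its difference turned to -0.05.

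Nnt, the mitochondrial transhydrogenase that makes NADPH from NADH, had few reads in both groups. It had 10.8, 8.71, 30.7 and 13.3 normalized counts in knockouts, against 16.1, 3.48, 16.7 and 6.22 in floxed controls. High and low mice were found in both groups, and the SD of log2 values, 0.87, was the largest among the 41 genes. The difference was 0.60 (SE 0.566, 95% interval -0.64 to 1.85). A deletion in Nnt is carried by the C57BL/6J substrain, and the sources used here name no strain for these mice. The GENCODE annotation of GRCm38 holds 2 overlapping gene models named Nnt on chromosome 13 (the longer from 119335448 to 119408997, minus strand), between which counting can drop or split reads, so its level is uncertain.

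Glutathione S-transferases, which join glutathione to reactive compounds, had 6 of 7 members with a higher mean in knockouts, a median difference of 0.10, and 0 that passed the test. The exception was Gstm1, with 2025, 1506, 2058 and 1791 normalized counts in knockouts, against 2061, 2274, 1982 and 2238 in floxed controls (-0.22, SE 0.106, 95% interval -0.46 to 0.01). Of its knockouts, 2 lay below every floxed control. Gstp1, whose promoter window holds the NF-E2 form shown above, had 1209, 1348, 1387 and 1584 in knockouts, against 1322, 1434, 1451 and 1289.6 in floxed controls (0.0035, SE 0.0948). The other 5 (Gsta4, Gstz1, Gsto1, Gstk1 and Gstm5) had differences from 0.05 to 0.32, with the widest spread in Gsta4 (SE 0.227). The sign turned without knockout 7 for Gstk1 (-0.03) and without knockout 8 for Gstm5 (-0.02), and Gstp1 ran from -0.06 to 0.07 as single libraries were left out. The Gstm and Gstp families have close paralogs, so their counts carry that uncertainty. For the promoter sites shown above, the differences of their genes were 0.06 for Prdx1, -0.14 for Srxn1, 0.0035 for Gstp1 and -0.12 for Txnrd1.

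By compartment, mitochondrial members had a higher median difference than cytosolic ones, and the secreted pair pointed in opposite directions. Of 10 mitochondrial members, 9 had a higher mean in knockouts and 1, Txnrd2, a lower one, with a median of 0.14. All 10 were higher with libraries scaled to the same total and 7 of 10 without knockout 7, and the median was 0.08 without knockout 7 or floxed control 4 and 0.25 without knockout 5. Of 22 cytosolic members, 15 were higher and 7 lower, with a median of 0.08, which was 0.01, 0.04 and 0.04 without floxed control 4, knockout 6 and knockout 8, and 0.15 without knockout 5. The 2 secreted enzymes gave -0.40 (Gpx3) and 0.18 (Sod3). The 5 members of the endoplasmic reticulum and peroxisome had a median of 0.16, with 4 higher and 1, Hmox1, lower. Over all 41 genes the median was 0.10 with 29 higher and 12 lower (0.02 without floxed control 4, 0.18 without knockout 5), beside a median of 0.0031 over all 13141 tested genes, of which 6654 were higher. The difference between compartments was not tested. Nuclear genes of oxidative phosphorylation, given beside the mitochondrial members for comparison, had a median of 0.26 with 49 of 49 higher, 15 of them at an unadjusted p under 0.05, beside 6.16% of all genes, and 0 past the adjusted threshold.

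**Figure D4:**
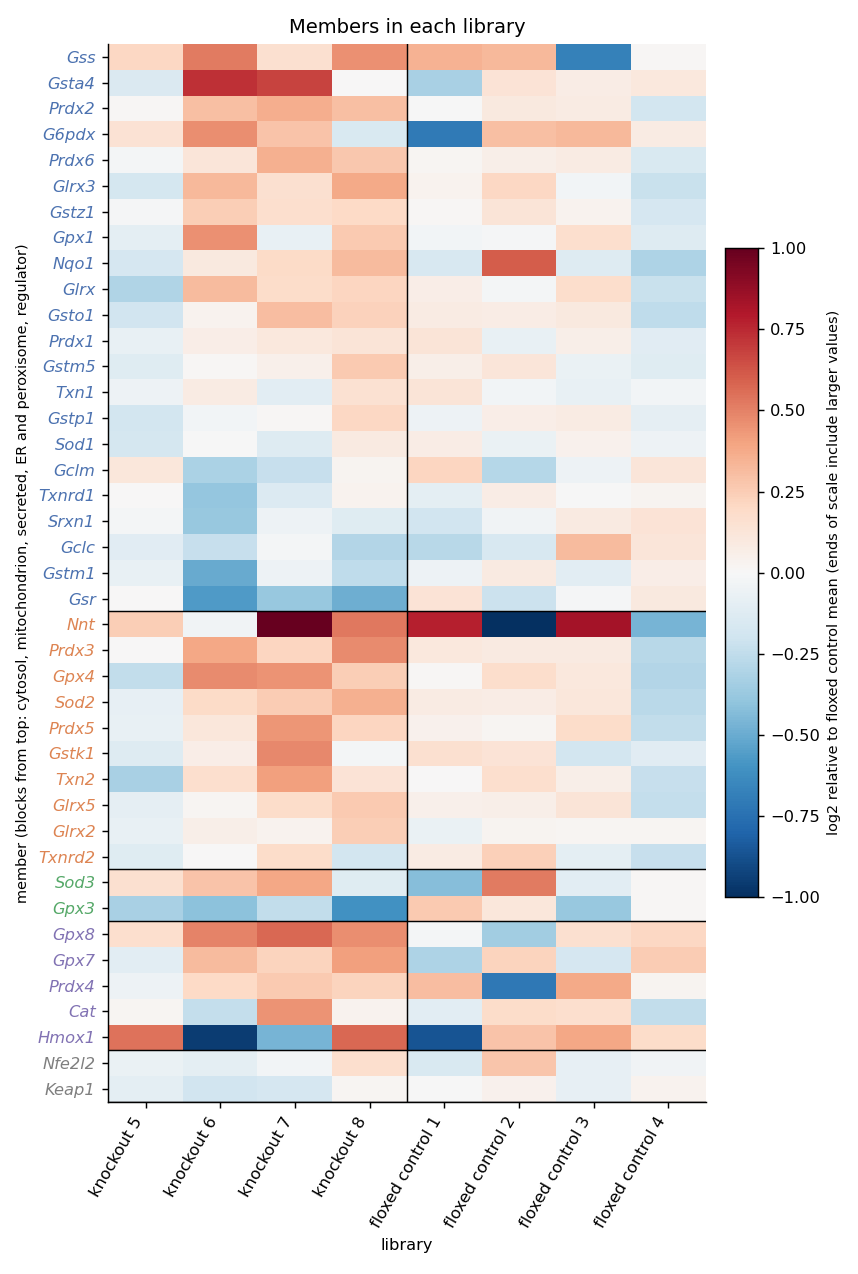
Log2 value of each gene in each library relative to its floxed control mean, with blocks of cytosolic, mitochondrial, secreted, endoplasmic reticulum and peroxisome, and regulator genes from top to bottom. In the mitochondrial block, floxed control 4 and knockout 5 are mostly below 0 and knockouts 7 and 8 mostly above.

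The mitochondrial median differed between libraries of a group. Relative to the floxed control mean, the median of the 10 mitochondrial members was -0.08, 0.09, 0.33 and 0.24 in knockouts 5 to 8, against 0.07, 0.08, 0.09 and -0.24 in floxed controls 1 to 4. Knockouts 7 and 8 stood clear of the floxed controls, knockout 6 was close to 3 of them, and knockout 5 and floxed control 4 were low. The oxidative phosphorylation genes had the same low libraries, with medians of -0.08, 0.38, 0.37 and 0.39 in knockouts and 0.07, 0.12, 0.10 and -0.29 in floxed controls. Cytosolic members had a narrower range, with medians of -0.07, 0.08, 0.08 and 0.17 in knockouts and 0.01, 0.07, 0.05 and -0.07 in floxed controls. For the 6 NRF2 targets the medians were -0.01, -0.35, -0.09 and 0.03 in knockouts and -0.17, 0.02, 0.04 and 0.12 in floxed controls, with knockout 6 the lowest. Floxed control 4 was the lowest of the 8 libraries in 15 of the 41 genes, 6 of them mitochondrial, beside 1991 of all 13141 tested genes. It was also the lowest in all 49 oxidative phosphorylation genes. Knockout 8 was the highest in 12 of the 41 genes, beside 1931 of all 13141. Titin (Ttn) transcript took 13.9%, 8.67%, 8.34% and 9.22% of normalized counts in knockouts 5 to 8, against 12.8%, 11.8%, 12.2% and 14.9% in floxed controls 1 to 4, so knockout 5 and floxed control 4 also had the largest titin shares of their groups. The part of this in the antioxidant genes was not tested.

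**Figure D5:**
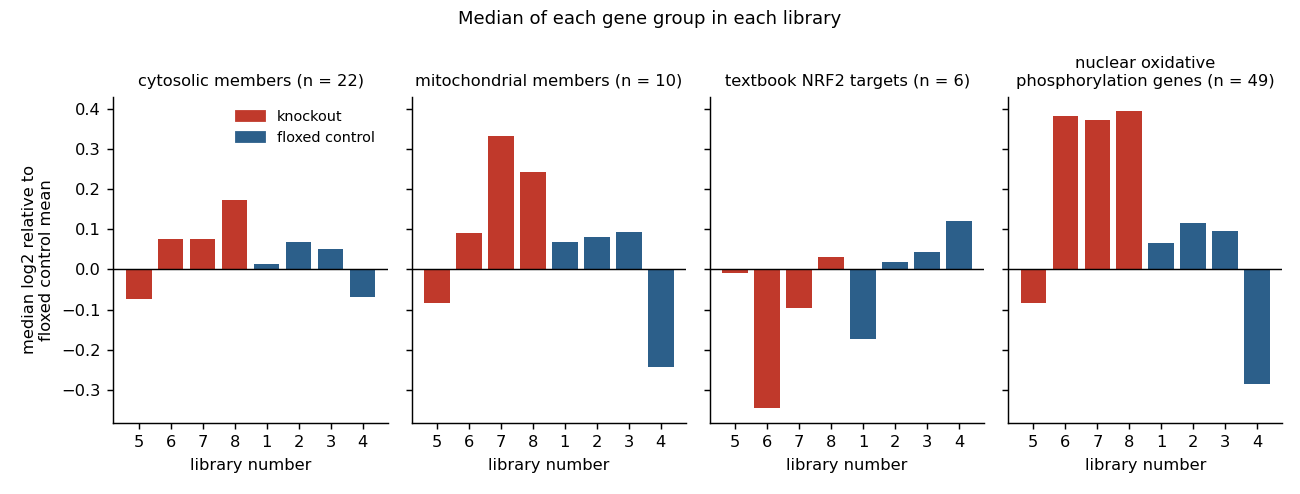
Median log2 value relative to the floxed control mean of 4 gene groups in each library (bars; knockouts 5 to 8, then floxed controls 1 to 4). Knockout 5 and floxed control 4 are low in the mitochondrial antioxidant genes and in the oxidative phosphorylation genes, and knockout 6 is lowest in the NRF2 targets.

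Counts at the unadjusted threshold moved with those libraries. Without knockout 5, 9 of the 41 genes had an unadjusted p under 0.05 (Glrx3, Gpx3, Gpx4, Gsr, Gstm1, Prdx2, Prdx3, Prdx6 and Sod2), but so did 16.7% of all genes. Without both floxed control 4 and knockout 5 there were also 9, beside 11.5% of all genes. Without knockout 6 or without knockout 8 there was 1, Gpx3, beside 3.21% and 3.47% of all genes. Without floxed control 1 or without floxed control 4 there were 2, beside 3.94% and 2.79% of all genes. No adjusted p of the 41 genes came under 0.05 in any of these fits; the smallest was 0.0978, for Gsr.

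Summed markers of other cells and fibre types varied between libraries, and 0 of these markers passed the adjusted threshold. Summed normalized counts of 10 macrophage markers were 2656 to 4761 in knockouts and 1526 to 2939 in floxed controls, and all 9 tested ones had a higher mean in knockouts (median difference 0.53, 0 past the adjusted threshold). Of these 9, 5 had an unadjusted limma p under 0.05, beside 6.16% of all genes. Knockout 6 was the highest library in all 9 and floxed control 1 the lowest in 8. Endothelial markers summed to 8913 to 10683 in knockouts and 7678 to 8937 in floxed controls. Of these 9 markers, 8 had a higher mean in knockouts (median difference 0.17), and 4 had an unadjusted limma p under 0.05. Markers of slow and oxidative fibres summed to 18862 to 101660.3 in knockouts, the highest in knockout 7. In floxed controls the sums were 9606 to 37784, the lowest in floxed control 4. A higher mean in knockouts was found for 6 of these 7 markers (median difference 1.19), and 0 had an unadjusted limma p under 0.05. Relative to the floxed control mean, their medians were 1.28, 0.92, 2.12 and -1.14 in knockouts 5 to 8. In floxed controls 1 to 4 these medians were 0.85, -1.01, 0.81 and -1.09, so both groups held high and low libraries. The part of fibre type in the differences of the antioxidant genes was not tested. Erythroid sums of 1899 to 3184 in knockouts lay within the 1119.8 to 5362 of floxed controls, and adipocyte sums of 539 to 1861 lay within 219 to 2138. Fibroblast sums were 30653 to 70538 in knockouts and 31607 to 50422 in floxed controls. Pericyte and smooth muscle sums were 15021 to 17020.0 in knockouts and 11665 to 15024 in floxed controls. All 6 of these markers had a higher mean in knockouts (median difference 0.44), and 1 had an unadjusted limma p under 0.05. Tendon sums were 3594 to 6650.1 in knockouts and 3862 to 6559 in floxed controls. All 6 tendon markers had a lower mean in knockouts (median difference -0.26), and 0 had an unadjusted limma p under 0.05. Schwann cell sums were 1299.8 to 1830.3 in knockouts and 1194 to 1742 in floxed controls. Satellite cell sums were 226 to 359 in knockouts and 237 to 429.9 in floxed controls. T cell and neutrophil markers summed to 7.21 to 54.5 in knockouts and 1.07 to 12.2 in floxed controls, and Cd3d was at 0 in every library. Muscle fibre markers, which check the labelled tissue, were abundant in every library, with sums from 6038319 to 9637671 in knockouts and 8485849 to 10623592 in floxed controls. Knockout 7 was the lowest of the 8 libraries in all 8 of these fibre markers, with a median of -0.28 relative to the floxed control mean, and it also had the highest median of the mitochondrial members, 0.33. These markers hold the myosin gene Myh4 but not Myh1, Myh2 or Myh7. Knockout 7 was the highest library for Myh1 (203391 normalized counts, others 49241 to 160175) and Myh2 (59055, others 4005 to 18567). For Myh7 knockout 5 was the highest (303, against 136 in knockout 7). Whether knockout 7 held fewer fibres or another mix of fibre types was not tested. Genes such as Hmox1, Prdx2, Cat and Gpx3 are also made by such non-fibre cells, and the part of these cells in the differences was not tested.

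The rest of the pathway was read from 9 further lists with 75 genes, of which 68 were tested, 40 with a higher and 28 with a lower mean in knockouts. Of the 68, 4 had an unadjusted p under 0.05, a share near the 6.16% of all genes, and 0 passed the adjusted threshold. NRF2's partners and repressors, among them the small MAF proteins, BACH factors and the CUL3 ligase that works with KEAP1, had 8 of 9 genes lower (7 of 9 with libraries scaled to the same total), with a median difference of -0.10. Bach2, a repressor that competes at ARE sites and is best known in lymphocytes, had 665, 289, 383 and 286 normalized counts in knockouts, against 738, 703, 494 and 567 in floxed controls (-0.70, SE 0.247). Of its knockouts, 3 lay below every floxed control. Of 8 NADPH-supplying genes 4 were higher and 4 lower, led by Idh1, the cytosolic NADP isocitrate dehydrogenase, with 434, 788, 892 and 695 in knockouts, against 399.9, 488, 573 and 404 in floxed controls (0.56, SE 0.207). Abcc1, which exports glutathione conjugates and oxidised glutathione, had 1423, 1194, 1368 and 1470.4 in knockouts, against 1825, 1724, 1511 and 1658 in floxed controls. The groups of Abcc1 did not overlap, as in 2.75% of all tested genes, and its difference was -0.30 (SE 0.0926, unadjusted p 0.00774, limma adjusted p 0.746). Of the 8 tested genes of glutathione transport and turnover, 3 were higher and 5 lower.

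In the other lists, higher means in knockouts were more frequent than lower ones, and 0 genes passed the test. Further glutathione S-transferases had 5 of 9 tested genes higher, with the microsomal Mgst1 at 0.49 (SE 0.261). Other thioredoxin-fold genes had 8 of 9 higher, with nucleoredoxin (Nxn) at 0.18 (SE 0.135). Methionine sulfoxide reductases, which repair oxidised methionine, had 3 of 4 higher, with the selenoprotein Msrb1 at 0.30 (SE 0.2) and wide spread among knockouts (2218 to 4543 normalized counts, against 2245 to 2855 in floxed controls). Iron and haem genes had 4 of 6 higher, with the iron exporter ferroportin (Slc40a1), which macrophages express strongly, at 0.53 (SE 0.196). Slc40a1 had 2088, 2831, 3220.2 and 3707 in knockouts, against 1954, 2765, 1999.7 and 1515 in floxed controls. Sestrins and other stress antioxidants had 7 of 8 higher, with the paraoxonase Pon2 at 0.16 (SE 0.0973). Genes listed under selenoprotein synthesis, most of which are not selenoproteins themselves, had 5 of 7 higher, with selenoprotein P (listed as Sepp1), a selenium carrier, at 0.19 (SE 0.0975). The cystine importer gene Slc7a11, which feeds glutathione synthesis and is induced by NRF2, averaged 0.856 normalized counts over the 8 libraries and was not tested, as were Ggt1, Gsta2, Gsta3, Gstm3, Gstm6 and Mgst2.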

How the data were processed

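RNA-seq of white quadriceps from 4 Acot2 muscle knockout and 4 Loxp/Loxp mice was used. Per the labels, total RNA was made into libraries with a stranded TruSeq kit, and GRCm38, STAR, HTSeq, DESeq2, cutadapt and FastQC appear, without versions or roles, in the submitters' processing notes. The authors deposited log2 values, 1 row per gene. From the values, each is log2(n + 1), with n the reads divided by 1 size factor per library: 100% of values up to 200 reads were whole within 0.1 read. The sources used here give no annotation release, strand setting or filter, and 28495 rows were 0 throughout.

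Genes whose normalized count averaged at least 10 were tested with limma 3.58.1 (trend) in R 4.3.3, with Benjamini-Hochberg adjustment over 13141 genes and a threshold of 0.05; intervals are 95%. Fold changes on the log2(n + 1) scale understate those of low genes. Spread is that between libraries of different mice and includes counting error (depth 28659632 to 40977866 reads on genes). Relative to the level, counting error is largest in Nnt and also weighs on other genes with few reads, such as Gpx8. Its part in the spread was not tested. The members and lists were chosen with earlier results of these data known. Genes given in full follow 1 rule: the targeted gene, NRF2, KEAP1 and 6 targets, members with an unadjusted p under 0.05, the 2 with the highest level and the 2 with the smallest p per compartment, the 3 with the largest spread, Nnt, and the smallest p of each other list. The other genes given by library (Gpx1, Prdx6, Gstm1 and Gstp1), Ttn and Slc7a11 were chosen after their values were seen. Compartments are textbook assignments; several proteins have more than 1. Lengths and positions come from GENCODE (GRCm38), promoters from RefSeq (GRCm38.p6); promoter windows of Gclc, Gsr, Prdx6, Gsta4, Nnt, Sod3 and Hmox1 were not used here. The fits were tested on simulated data.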

Additional observations from a re-analysis of the deposited data

Results flagged for a closer look

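In 6 of 84 groups of 4 libraries (41 genes and Acot2, each in both genotypes), 1 library stood far from the other 3 by Dixon's criterion, where chance gives about 1 in 20, or 4.2. All 6 are low values in floxed controls. Floxed control 4 had 3374 normalized counts of Prdx3 (the other floxed controls 4347 to 4391), 5484 of Sod2 (6935 to 7133) and 628 of Gsto1 (789 to 802). Floxed control 1 had 75.0 of Gsta4 (99.0 to 104), 519.9 of Glrx2 (553 to 557) and 611 of Hmox1 (1262 to 1456). Without floxed control 4 the differences of Prdx3 and Sod2 were 0.18 and 0.09.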

How the results depend on the processing

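Of the 41 genes, 0 passed the adjusted threshold under any of 19 alternatives, and 0 of the other pathway genes did. Without the filter on low values, 1 gene passed across the transcriptome, Acot2 (-2.30, limma adjusted p 0.0042), whose difference was -2.49 to -2.03 as single libraries were left out. Over the 19 alternatives the limma adjusted p of Acot2 ran from 0.0042 to 0.758, so its passing depended on the setting. The median difference of the 41 genes ran from 0.02 to 0.18, of cytosolic members from 0.01 to 0.15 and of mitochondrial members from 0.08 to 0.25. Of 777 values of the 41 genes, 30, in 11 genes, had the other sign. Nfe2l2 was 0.035 with the same total per library, 0.027 with library weights, 0.0018 without floxed control 4 and knockout 5, and -0.064 to 0.086 as single libraries were left out; Cat was -0.0002 without floxed control 4 and knockout 5 and -0.063 to 0.17 leaving out single libraries, and Hmox1 was -0.36 to 0.22 leaving out single libraries. Txnrd2 was 0.014 with the same total per library; it and Gstp1, Txn1, Txn2, Prdx4, G6pdx, Gstk1 and Gstm5 also turned as single libraries were left out. The cause was not tested. Genes at an unadjusted p under 0.05 numbered 367 to 2200 as single libraries were left out, 1362 without the filter, 1467 with library weights and 1509 without floxed control 4 and knockout 5; among the 41 genes they numbered 1 to 9. A mean of at least 50 left out Nnt and Gpx8.

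The titles number mice 1 to 8 over the series, so they give no pairing between the groups, which share no number there. The column names run 1 to 4 in each group. Deviations of same-numbered libraries correlated at -0.05, 0.10, 0.28 and -0.16. These few values cannot decide whether such libraries share more than a number. A limma fit with the column number as replicate block was added after seeing the data, as was limma voom on recovered reads. In the block fit 0 genes passed, 931 had an unadjusted p under 0.05 and 3 of these were among the 41 genes. The planned edgeR and DESeq2 fits were not run, since the deposited unit is log2.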
